A study of Rattus norvegicus with 18 samples.

Results

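The cyclins, the cyclin-dependent kinases (CDKs), the CDK inhibitors and the genes with a Cdc number make up the core of the machinery that moves a cell through its division cycle. They were read here in 9 cell populations of the rat testis. All genes were taken whose symbol in the array annotation started with Ccn and a letter, Cdk and a number, Cdkn, or Cdc and a number (Cdc20 excepted), on either of the 2 array types. This gave 88 of the 13807 named genes on the arrays, with 26 Ccn, 26 Cdk, 10 Cdkn and 26 Cdc symbols. Each gene was read from the brightest of its probe sets, by the mean log2 signal over the 9 libraries. The 88 genes had 140 probe sets, 36 genes had several, and 70 genes were read on type A and the other 18 on type B. The name rule also brings in genes that do not act in the cell cycle, such as the small GTPase Cdc42 with its effectors and several CDKs and cyclins of transcription.

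All cells came from the testes of 22-day-old rats, and the labels give neither their strain nor their number. The 7 germ cell populations were laminin-binding and non-binding germ cells (both labelled as cultured, with no day given), germ cells on STO feeders on days 1, 5, 10 and 20, and germ cells on MSC1 feeders on day 20. The 2 somatic populations were interstitial cells and tubular somatic cells. STO is a line of mouse embryonic fibroblasts and MSC1 a line of mouse Sertoli cells, and the labels do not say whether germ cells were freed from the feeders. Laminin is a matrix protein to which spermatogonial stem cells attach, and selection on it enriches them. No population had a replicate, so no difference below can be set against the spread between animals or cultures, and no p-value is given for any pair of populations.

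Cyclins bind CDKs and switch them on at set points of the cycle. D-type cyclins with Cdk4 or Cdk6 and E-type cyclins with Cdk2 act from the first gap phase into DNA synthesis, and A-type and B-type cyclins with Cdk1 act through DNA synthesis into mitosis. Inhibitors of the Cdkn1 group bind cyclin and CDK together, those of the Cdkn2 group bind Cdk4 and Cdk6, and other cyclin and CDK pairs act on RNA polymerase rather than on the cell cycle. In the testis, spermatogonia divide by mitosis and then enter meiosis, for which Ccna1 and the E-type cyclins are known to be needed, while most Sertoli cells have stopped dividing by puberty.

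The arrays limit how far values can be read. The authors scaled each array to an average signal of 250, and signals under 50 were raised to 50 here. The 100 probe sets present on both array types gave each fold change on both types. The standard deviation of the log2 fold per type was 0.15 to 0.27, so that 2 standard deviations came to 1.22-fold to 1.46-fold. Single probe sets differed more: the largest difference in log2 fold between the types was 1.00 to 1.33, by comparison. This is array error alone. Gapdh, whose 3' over 5' probe set ratio measures RNA quality, had ratios of 14.7 to 29.7 (type A) in the 5 feeder libraries and 5.63 to 11.2 in the other 4; on type B these ranges overlapped (15.0 to 27.1 and 5.33 to 16.7), as did those of beta-actin on both types (25.8 to 94.3 and 8.91 to 67.3 on type A, 21.0 to 95.4 and 11.6 to 48.9 on type B). The 6 general germ cell markers measured summed to 14241.5 to 32446 in the germ cell libraries and 769.8 to 801 in the somatic ones. The 5 markers of meiotic prophase summed to 9637 in non-binding cells and 14347.5 on day 20 on STO, against 1213 to 3478 in the other 5 germ cell libraries. The interstitial fraction held Leydig markers (Hsd3b1 at 2400.2) but also Sertoli markers (Aldh1a1 at 3221) and the macrophage marker Cd68 at 1047, and Sox9 and Amh, which define Sertoli cells, were under 50 in both somatic fractions. In these bulk samples, fewer cells of a type and less RNA per cell cannot be told apart.

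A gene was called different between populations where the brighter side reached 250 and the fold was at least 3. Against the pair of somatic fractions the call had to hold for each, and for all germ cell against all somatic libraries the mean log2 signals were compared and the ranges could not overlap. Of the 88 genes, 86 were above 50 in at least 1 library (Cdk5r2 and the CDK inhibitor Cdkn2b were not), 71 were at least 50 in all 9, and 69 reached 250 and could be called. In all, 29 genes (33.0%) were called in at least 1 of the 6 comparisons and 59 in none, where 29.0% of all genes were called in at least 1.

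Laminin-binding cells had 3 of the 88 genes higher than non-binding cells and 10 lower, where 4.85% of all genes were higher and 5.29% lower. Over both somatic fractions, laminin-binding cells had 6 higher and 2 lower (all genes, 4.77% and 3.56%). Day 20 on STO had 4 higher and 8 lower than day 1 (all genes, 2.09% and 3.76%). Germ cells on MSC1 had 2 higher and 2 lower than those on STO on day 20 (all genes, 3.63% and 2.72%). For this last pair the split over all genes depended on the scaling: 501 genes were higher and 376 lower as deposited, and 383 higher and 507 lower with arrays brought to the same 75th percentile. Tubular somatic cells had 2 higher and 8 lower than interstitial cells (all genes, 3.30% and 3.99%). The 7 germ cell libraries had 9 higher and 1 lower than the 2 somatic libraries (all genes, 4.73% and 5.23%).

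The share called among the 88 genes was above that of all genes for the 10 below the non-binding level in laminin-binding cells, the 6 above both somatic fractions, both directions of the culture on STO, the 8 lower in tubular somatic cells and the 9 higher in germ cells. In the other 6 it was below that of all genes. More of the 88 genes (78.4%) than of all genes (61.5%) reached 250 and could be called. Among genes that did, the 10 lower than in non-binding cells were 14.5% (all such genes, 8.61%), the 6 above both somatic fractions 8.70% (7.76%), the 4 higher and 8 lower on day 20 5.80% and 11.6% (3.39% and 6.11%), the 8 lower in tubular somatic cells 11.6% (6.49%) and the 9 higher in germ cells 13.0% (7.69%). Several of these orders turned with the setting. With a fold of 2 the share of the 88 genes was above that of all genes for laminin-binding over non-binding cells, higher (13.6% against 10.5%), and for both directions of MSC1 over STO (9.09% against 8.37% and 10.2% against 7.12%). With the mean over probe sets it was below for those above both somatic fractions (2.27% against 3.69%). That mean also put it above for laminin-binding over non-binding cells, higher (3.41% against 3.38%), and for MSC1 over STO, lower (2.27% against 1.85%). For MSC1 over STO, lower, it was above with the 75th percentile scaling too (5.68% against 3.67%). Quantile normalization put both directions of MSC1 over STO above (3.41% against 3.18% higher, 4.55% against 2.88% lower). Without any minimum fold, the 7 germ cell libraries all lay above both somatic libraries for 18 of the 88 genes (20.5%, against 13.6% of all genes) and all lay below them for 5 (5.68%, against 10.6%); the ranges overlapped for the other 65. The median log2 fold of the measured genes of the group was small in each comparison. It was 0.37 for germ cell over somatic libraries (all genes, 0.09), 0.36 for laminin-binding cells over the mean of both somatic fractions (all genes, 0.10) and -0.25 for day 20 over day 1 on STO (all genes, -0.12). It was 0.03 for laminin-binding over non-binding cells (all genes, 0.22), 0.11 for MSC1 over STO (all genes, 0.23) and -0.04 for tubular somatic over interstitial cells (all genes, 0.02).

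**Figure D1:**
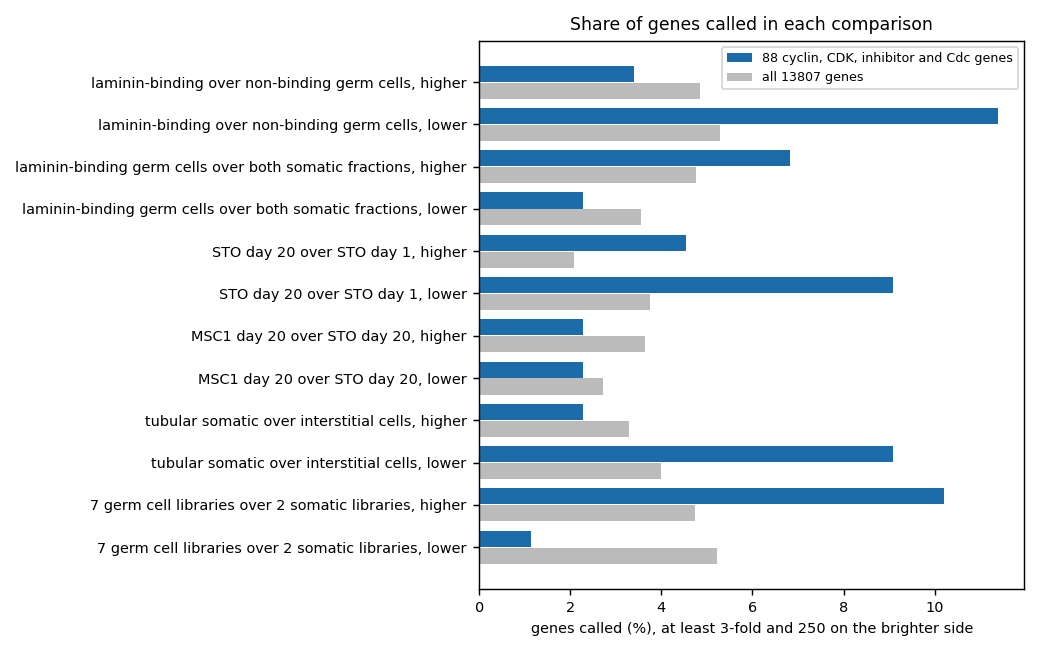
Share of genes called in each comparison and direction (horizontal axis, percent), for the 88 cyclin, CDK, inhibitor and Cdc genes (blue bars) and for all 13807 genes (grey bars). The blue bar is longest for the 10 genes below the non-binding level in laminin-binding cells and shortest for the 1 gene lower in germ cell than in somatic libraries.

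**Figure D2:**
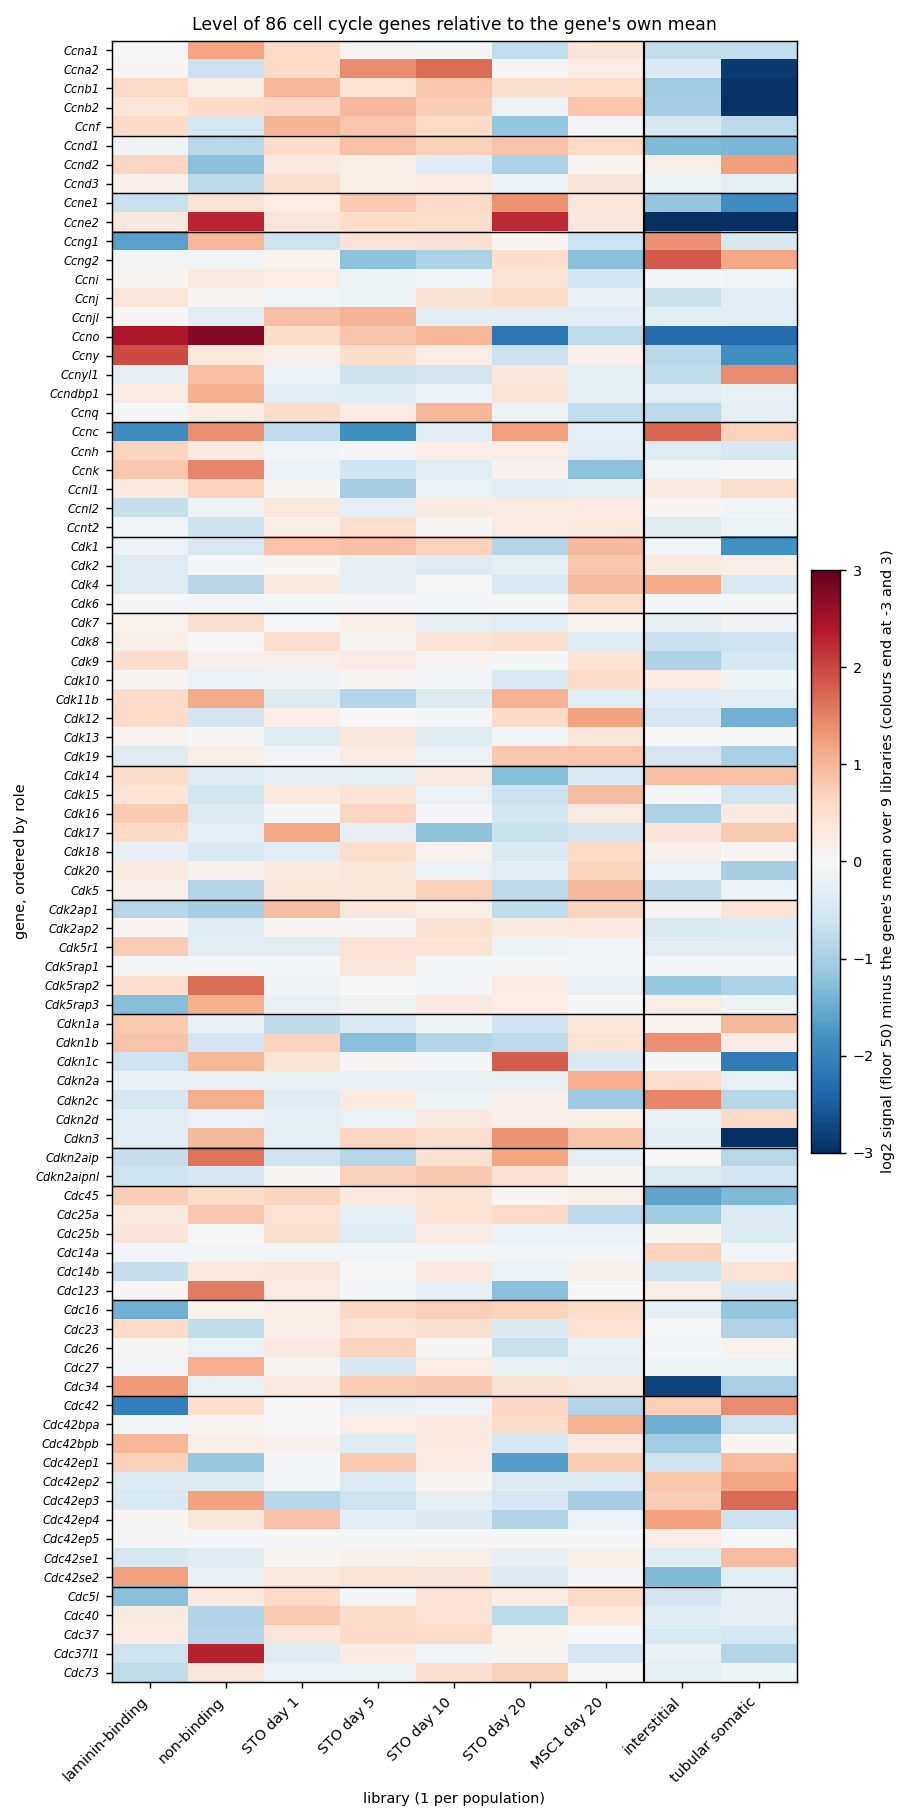
Level of the 86 genes above 50 in at least 1 library, as the log2 signal (floor 50) minus the gene's own mean over the 9 libraries, with red above and blue below that mean; horizontal lines part the roles and the vertical line parts the 7 germ cell from the 2 somatic libraries. The deepest blue lies in the tubular somatic column for Ccna2, Ccnb1, Ccnb2 and Cdkn3, in both somatic columns for Ccne2, and in the interstitial column for Cdc34.

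Ccna2, Ccnb1 and Ccnb2, cyclins that drive DNA synthesis and mitosis, had their lowest signals in tubular somatic cells. Ccnb1, the main cyclin of entry into mitosis, had signals of 1391 in laminin-binding cells, 1084 in non-binding cells, 1889, 1260.1, 1666 and 1310 on days 1, 5, 10 and 20 on STO, and 1349 on day 20 on MSC1. It had 446.5 in interstitial and 123 in tubular somatic cells. Every germ cell library thus lay above both somatic libraries, by 5.98-fold in the means, laminin-binding cells lay 3.12-fold above the nearer somatic fraction, and tubular somatic cells lay 3.63-fold below interstitial cells. With the mean over its 2 probe sets the last pair of folds was 1.95 and 3.07 and neither was called. Ccnb2, the second B-type cyclin, read 876 in laminin-binding cells, 1028 in non-binding cells, 1037.5, 1332, 1139 and 598 on days 1, 5, 10 and 20 on STO, and 1197 on day 20 on MSC1. Its somatic signals were 335 in interstitial and 88.5 in tubular somatic cells, again below every germ cell library, with a mean difference of 5.82-fold and a 3.79-fold difference between the somatic fractions. Day 20 on STO was the lowest of the germ cell libraries for Ccnb2 but not for Ccnb1.

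Ccna2, the A-type cyclin of dividing body cells, had its highest signals in the middle of the STO series, with 1081 in laminin-binding cells, 678 in non-binding cells, 1563, 2832, 3351 and 1079 on days 1, 5, 10 and 20 on STO, and 1241 on day 20 on MSC1. It had 788.5 in interstitial and 144 in tubular somatic cells. The interstitial library lay inside the germ cell range, above non-binding cells, so the germ cell against somatic call was not made, while tubular somatic cells were 5.48-fold below interstitial cells. Cdk1, the kinase that the A-type and B-type cyclins switch on for mitosis, had 288 in laminin-binding cells, 238 in non-binding cells, 596, 599.5, 528 and 178 on days 1, 5, 10 and 20 on STO, and 647 on day 20 on MSC1. Its somatic signals of 311 in interstitial and 93.2 in tubular somatic cells overlapped the germ cell range for the interstitial fraction. Cdk1 was 3.33-fold lower in tubular somatic than in interstitial cells, 3.35-fold below its day 1 signal on day 20 on STO, and 3.63-fold higher on MSC1 than on STO on day 20. The fold between the somatic fractions was 2.91 under quantile normalization, which ended that call.

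Cdkn3, a phosphatase that takes the activating phosphate off CDKs and is made by dividing cells, had 470 in laminin-binding cells, 1145 in non-binding cells, 485, 921, 821 and 1488 on days 1, 5, 10 and 20 on STO, and 1053 on day 20 on MSC1. It had 465 in interstitial and 56.7 in tubular somatic cells. The interstitial signal lay just under the lowest germ cell signal and the tubular somatic signal near the floor. The germ cell mean was 5.21-fold above the somatic mean, tubular somatic cells were 8.20-fold below interstitial cells, and day 20 on STO was 3.07-fold above day 1. Ccnf, a cyclin that selects proteins for breakdown, read 302 in laminin-binding cells, 140.1 in non-binding cells, 409, 355, 297.5 and 90.6 on days 1, 5, 10 and 20 on STO, and 192 on day 20 on MSC1, with 145 in interstitial and 116 in tubular somatic cells. Its day 20 signal was 4.51-fold below that of day 1, and its somatic signals lay inside the germ cell range. Ccna1, the A-type cyclin of meiosis, did not reach 250 anywhere: it was highest in non-binding cells at 190, read 79.3 to 124.5 in 5 other germ cell libraries, and was under 50 on day 20 on STO and in both somatic fractions.

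**Figure D3:**
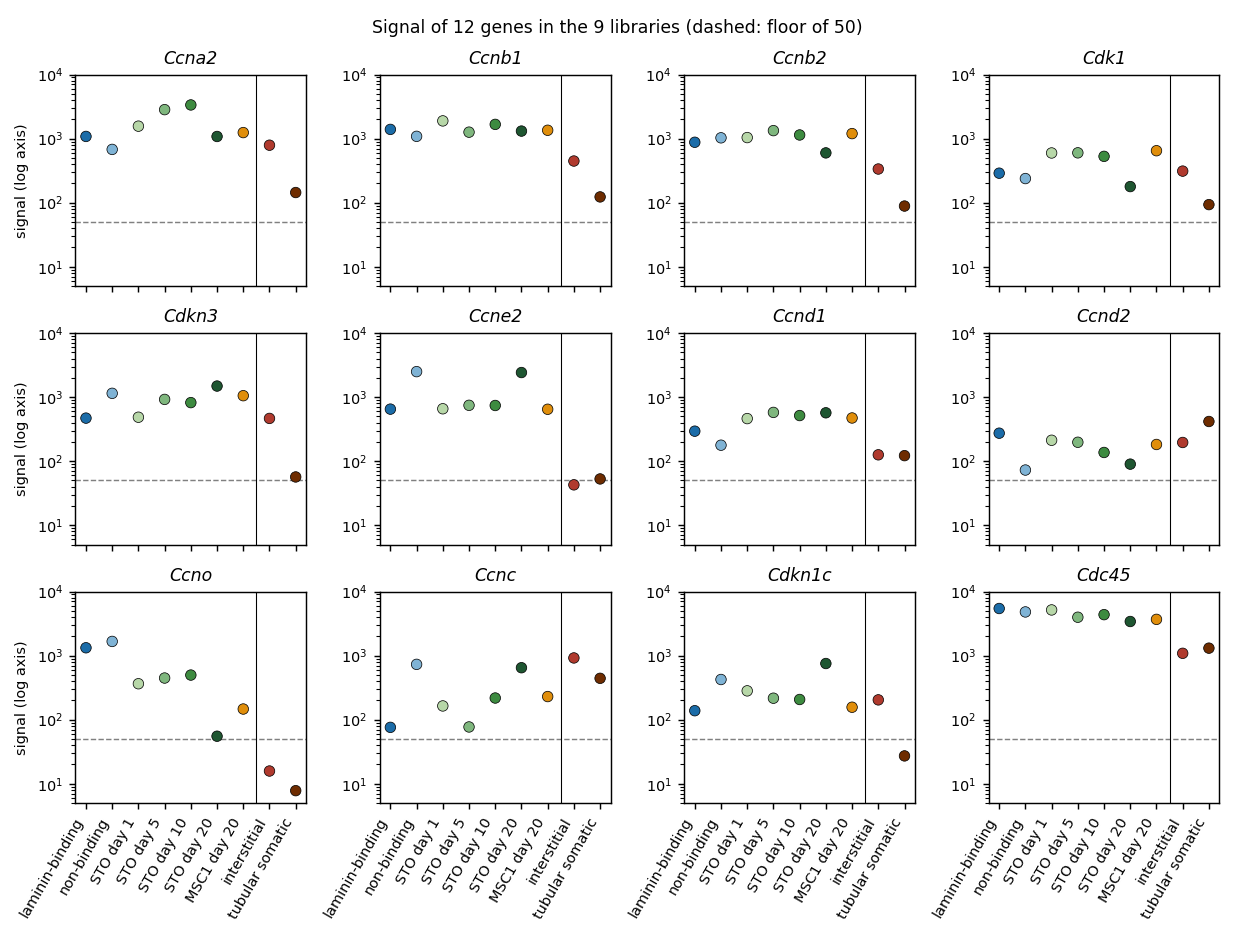
Signals of 12 genes (vertical log axis, scaled signal; each point is 1 library; the vertical line parts germ cell from somatic libraries and the dashed line is the floor of 50). Ccna2, Ccnb1, Ccnb2, Cdk1 and Cdkn3 are each lowest in tubular somatic cells, Ccne2 is highest in non-binding cells and on day 20 on STO, and Ccno is highest in the pair of laminin libraries.

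Ccna2, Ccnb1, Ccnb2, Cdk1 and Cdkn3, 5 of 5, were lowest of all 9 libraries in tubular somatic cells. All were called lower there than in interstitial cells, and these 5 were put together after their values were seen. Of the 86 genes of the group above 50 in any library, 21 were lowest in tubular somatic cells and 15 in interstitial cells. These counts used signals not raised to 50. Some therefore rest on differences under the floor, such as Ccno at 7.8 in tubular somatic and 15.8 in interstitial cells. The same share over all genes was not counted. Across the 9 libraries, the correlation of log2 signals was 0.95 between Ccnb1 and Ccnb2, 0.87 between Ccna2 and Ccnb1, and 0.57 between Cdk1 and Cdkn3; the points share arrays and scaling, and the coefficients are given as a description. The general germ cell markers summed to 769.8 in the interstitial and 801 in the tubular somatic library, those of pachytene and later stages to 2086 and 749.7, with Acrv1 under 50 in both, and those of macrophages to 2639.9 and 457. What part these cells had in the difference was not tested.

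The bases before the start of these genes are shown because each gene had its lowest signal in tubular somatic cells, as others did. A further reason is that promoters of mitotic genes are known for CCAAT boxes, which the factor NF-Y binds. Of the 88 genes, 77 had a promoter in the RefSeq table (build GRCr8), and Ccna2 was not among them. The start is the one that table uses. The annotated gene reaches past it into the window for Ccnb2 (up to 79981717), Cdk1 (from 19265252) and Cdkn3 (from 22502299), but not for Ccnb1. The same holds for others of the group, such as Ccna1 and Ccnc. The 250 bases before the start are printed 5′ to 3′ on the gene's strand for Ccnb1 (chr2:33655226-33655475, minus strand), Ccnb2 (chr8:79981659-79981908, minus strand), Cdk1 (chr20:19265043-19265292, plus strand) and Cdkn3 (chr15:22502136-22502385, plus strand). Capitals mark matches, on either strand, to CCAAT, to TTTGAA (the element known as CHR) and to TTCCCGC or TTGGCGC (2 forms of the site of the E2f factors). No matches overlapped.
Ccnb1: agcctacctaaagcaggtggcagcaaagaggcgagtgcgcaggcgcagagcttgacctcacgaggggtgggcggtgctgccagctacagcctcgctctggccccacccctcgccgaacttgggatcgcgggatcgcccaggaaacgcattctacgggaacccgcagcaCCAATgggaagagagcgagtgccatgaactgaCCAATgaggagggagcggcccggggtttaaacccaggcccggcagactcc
Ccnb2: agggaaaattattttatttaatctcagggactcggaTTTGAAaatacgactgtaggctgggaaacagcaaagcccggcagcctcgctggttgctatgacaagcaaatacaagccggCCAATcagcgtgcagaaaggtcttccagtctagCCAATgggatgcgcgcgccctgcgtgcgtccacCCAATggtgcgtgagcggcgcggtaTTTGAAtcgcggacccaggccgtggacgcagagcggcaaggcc
Cdk1: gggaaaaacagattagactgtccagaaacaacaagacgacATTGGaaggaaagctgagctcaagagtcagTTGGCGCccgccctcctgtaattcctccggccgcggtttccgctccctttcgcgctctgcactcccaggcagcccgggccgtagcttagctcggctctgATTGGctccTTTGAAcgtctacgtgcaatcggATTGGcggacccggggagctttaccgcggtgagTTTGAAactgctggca
Cdkn3: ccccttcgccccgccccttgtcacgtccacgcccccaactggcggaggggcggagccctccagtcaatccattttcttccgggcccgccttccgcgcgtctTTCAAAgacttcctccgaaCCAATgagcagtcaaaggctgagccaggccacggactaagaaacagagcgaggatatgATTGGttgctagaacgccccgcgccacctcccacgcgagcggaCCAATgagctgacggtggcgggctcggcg

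The Ccnb1 window held 2 CCAAT matches, whose first letters lay 82 and 50 bases before the start, and no match to the other motifs. The Ccnb2 window held 3 CCAAT matches, 134, 101 and 68 bases before the start, and 2 TTTGAA matches, 214 and 43 bases before it. In Cdk1, 3 CCAAT matches lay 210, 81 and 49 bases before the start, 2 TTTGAA matches 72 and 16 bases, and 1 TTGGCGC match 180 bases before it. Cdkn3 had 3 CCAAT matches, at 130, 72 and 29 bases, and 1 TTTGAA match at 149 bases. All 4 windows thus held at least 2 CCAAT matches. Some matches lay inside the annotated gene. These were the Cdkn3 CCAAT matches at 72 and 29 bases and the TTTGAA matches at 16 bases in Cdk1 and 43 bases in Ccnb2. Among all 27457 promoters of the table, 34.3% held CCAAT and 9.77% held it at least 2 times in the same window; of the 77 promoters of the group, 45.5% and 20.8% (16) did. TTTGAA was in 16.0% of all promoters and 10.4% of the 77, and TTCCCGC or TTGGCGC in 5.32% and 13.0%. A match is a run of letters, and binding was not measured.

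By the brightest probe set of each, the E-type cyclins, which act with Cdk2 at the start of DNA synthesis, were above both somatic fractions in every germ cell library, and Ccne2 was highest in the libraries with the highest meiotic markers. Ccne2 had 649 in laminin-binding cells, 2499.6 in non-binding cells, 658, 745, 740 and 2419 on days 1, 5, 10 and 20 on STO, and 646 on day 20 on MSC1. The somatic fractions were near or under the floor, with 42.7 in interstitial and 52.8 in tubular somatic cells. Non-binding cells and day 20 on STO therefore stood apart from the other 5 germ cell libraries, which lay within 646 to 745. The germ cell mean was at least 19.2-fold above the somatic mean, laminin-binding cells were 12.3-fold above the nearer somatic fraction and 3.85-fold below non-binding cells, day 20 on STO was 3.68-fold above day 1, and MSC1 was 3.74-fold below STO on day 20. A second Ccne2 probe set, on type B, did not separate germ from somatic cells: it read 224 in tubular somatic and 169 in interstitial cells, 258 on MSC1, and 94.3 to 203 in the other 6 germ cell libraries, lowest in non-binding cells, and was called in no comparison. With the mean over both probe sets only the germ cell against somatic call remained, and the fold of non-binding over laminin-binding cells was 1.67.

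Ccne1 was highest on day 20 on STO and lowest among germ cells in the laminin-binding library, with 114 in laminin-binding cells, 239.5 in non-binding cells, 210.4, 311, 275 and 461 on days 1, 5, 10 and 20 on STO, and 232 on day 20 on MSC1. Its somatic signals were 81.9 in interstitial and 47.4 in tubular somatic cells, below every germ cell library, but its germ cell mean was under 250 and none of the 6 comparisons called it. Ccne1 and Ccne2 had a correlation of 0.88 over the 9 libraries. Cdk2, their kinase, varied little: it read 121 to 191.5 in 8 libraries and 283 on MSC1. The 5 meiotic prophase markers, given above, were also highest in non-binding cells and on day 20 on STO, and their part in the Ccne2 difference was not tested.

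The 3 D-type cyclins, which link growth signals to Cdk4 and Cdk6, differed from each other in where they were highest. Ccnd1 had 294 in laminin-binding cells, 177.5 in non-binding cells, 462, 577, 515 and 569 on days 1, 5, 10 and 20 on STO, and 472 on day 20 on MSC1, and 126 in interstitial and 122 in tubular somatic cells. All germ cell libraries lay above both somatic ones, by 3.31-fold in the means, and non-binding cells were the lowest of the germ cell libraries. The mean over its 3 probe sets gave 3.36-fold but no call. Ccnd2, which spermatogonia are known to make as they begin to differentiate, had 273 in laminin-binding cells, 72.7 in non-binding cells, 212, 197, 137 and 89.9 on days 1, 5, 10 and 20 on STO, and 182 on day 20 on MSC1, and 196 in interstitial and 416 in tubular somatic cells. Laminin-binding cells had 3.76-fold more signal than non-binding cells, its highest signal was in tubular somatic cells, and the germ cell and somatic ranges overlapped. Sertoli markers moved the same way, except Vnn1: the 8 measured summed to 1639 in laminin-binding, 829.5 in non-binding and 11566 in tubular somatic cells, Cldn11 read 637, 156.5 and 3389.9, and Sox9 and Amh were under 50 in all 3. Their part in the Ccnd2 difference, and in that of Cdc42ep1, which was also highest in tubular somatic cells, was not tested. With a floor of 100 the fold between the laminin libraries was 2.73, short of a call. Ccnd3 read 165 to 399.6 over the 9 libraries, lowest in non-binding cells, and was not called. All 3 D-type cyclins were thus lowest among the germ cell libraries in non-binding cells.

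Cdk4 ranged from 272 in non-binding cells to 956 on MSC1 among germ cells, with 1064 in interstitial and 358 in tubular somatic cells; it was called in no comparison. Cdk6 stayed near or under the floor, between 21.1 and 75.5. Cdk5, a kinase best known from neurons, was between 58.9 in non-binding cells and 213 on MSC1.

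Among cyclins outside the classical cycle, Ccno was highest in the pair of laminin libraries and Ccny in laminin-binding cells. Ccno, cyclin O, known for its need in cells that grow many cilia (read on type B), had 1326 in laminin-binding cells, 1665.5 in non-binding cells, 364, 447, 497 and 55.2 on days 1, 5, 10 and 20 on STO, and 147 on day 20 on MSC1. Both somatic fractions were under the floor. The pair of laminin libraries lay above all others, days 1 to 10 on STO came next, and day 20 on STO was close to the floor. Laminin-binding cells were at least 26.5-fold above both somatic fractions, the germ cell mean was at least 7.86-fold above the somatic mean, and day 20 was 6.60-fold below day 1. The second Ccno probe set was above 50 in laminin-binding cells alone, at 102, and averaging the probe sets ended the germ cell call (2.95-fold) and the day 20 call (2.57-fold); a floor of 100 also ended the germ cell call.

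Ccny, cyclin Y, which holds the kinases Cdk14 and Cdk16 at the cell membrane, had 1159 in laminin-binding cells, 372 in non-binding cells, 331, 428, 347 and 190.2 on days 1, 5, 10 and 20 on STO, and 329 on day 20 on MSC1. It had 167 in interstitial and 82.9 in tubular somatic cells. The laminin-binding library was the highest of all, 3.11-fold above non-binding cells and 6.93-fold above the nearer somatic fraction, and all germ cell libraries lay above both somatic ones (3.30-fold in the means). The fold over non-binding cells was 2.94 with the 75th percentile scaling and 2.89 under quantile normalization, which ended that call but not the others. Of its partners, which fall outside the rule for named genes and were added with their values known, Cdk14 read 199 and Cdk16 439 in laminin-binding cells, against 105 and 193 in non-binding cells; neither was called. Ccnyl1, the Y-like cyclin known for its need in sperm, had 4691.5 in laminin-binding cells, 10291 in non-binding cells, 4926, 3559, 3705 and 7037 on days 1, 5, 10 and 20 on STO, and 4595 on day 20 on MSC1, and 3274 in interstitial and 14796 in tubular somatic cells. The highest signal was that of tubular somatic cells, 4.52-fold above interstitial cells, with non-binding cells the next. Quantile normalization gave 2.66-fold and no call.

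The G cyclins were highest in the interstitial fraction. Ccng1, a target of the tumour suppressor p53, had 175 in laminin-binding cells, 1078.5 in non-binding cells, 348, 723, 735 and 569.9 on days 1, 5, 10 and 20 on STO, and 349 on day 20 on MSC1, and 1388 in interstitial and 383 in tubular somatic cells. Laminin-binding cells were the lowest of all libraries and 6.18-fold below non-binding cells, and tubular somatic cells were 3.62-fold below interstitial cells. Ccng2, known from cells that leave the cycle, had 112 in laminin-binding cells, 112 in non-binding cells, 128, 50.6, 61.3 and 169.7 on days 1, 5, 10 and 20 on STO, and 43.5 on day 20 on MSC1, and 424 in interstitial and 266 in tubular somatic cells. It was the 1 gene of the group called lower in germ cell than in somatic libraries, by at least 3.80-fold, since the MSC1 signal was under the floor. With a floor of 100 the fold was 2.91 and the call was lost. Of the other 5 genes put with these cyclins, none was called in any comparison.

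Of 6 cyclins and 8 CDKs of transcription, 1 was called in any of the 6 comparisons, Ccnc, where 29.0% of all genes were. Others varied without a call, such as, chosen after their values were seen, Ccnk, between 252 on MSC1 and 1615 in non-binding cells, and Cdk12, between 58.2 in tubular somatic cells and 367 on MSC1. Ccnc, cyclin C, is the partner of Cdk8 in the kinase module of the Mediator complex. It had 75.9 in laminin-binding cells, 730.4 in non-binding cells, 164, 77, 218 and 648 on days 1, 5, 10 and 20 on STO, and 229.7 on day 20 on MSC1, and 920.1 in interstitial and 442 in tubular somatic cells. Laminin-binding cells and day 5 on STO were lowest, and non-binding cells, day 20 on STO and both somatic fractions were high, so that the germ cell and somatic ranges overlapped. Laminin-binding cells were 9.62-fold below non-binding cells, the largest fold of the group in that comparison by the brightest probe sets, and 5.83-fold below the nearer somatic fraction, and day 20 on STO was 3.95-fold above day 1. The second Ccnc probe set read 96.8 in laminin-binding and 109 in non-binding cells, and with the mean over both the fold between the laminin libraries was 3.29 and still called, that of day 20 over day 1 was 2.33 and that against the somatic fractions 1.74. The pair Ccnh and Cdk7, which activates other CDKs, was not called: Ccnh read 587 to 1314 and Cdk7 391 to 672. Cdk8, named as the partner of Ccnc, read 709 to 1588.

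Among the CDK inhibitors and Cdkn3, 8 genes in all, those called in at least 1 comparison were Cdkn1c, Cdkn2c and Cdkn3 (all genes, 29.0%). Cdkn1c, an imprinted inhibitor of cyclin and CDK complexes, had 138 in laminin-binding cells, 424 in non-binding cells, 282, 216, 207 and 753 on days 1, 5, 10 and 20 on STO, and 156.5 on day 20 on MSC1, and 204 in interstitial and 27.2 in tubular somatic cells. It was highest on day 20 on STO and in non-binding cells: laminin-binding cells were 3.07-fold below non-binding cells, and MSC1 was 4.81-fold below STO on day 20. Its 2.67-fold difference between day 20 and day 1 stayed under the fold of 3. Cdkn2c, an inhibitor of Cdk4 and Cdk6 that germ cells are known to make around the entry into meiosis, had 175 in laminin-binding cells, 532 in non-binding cells, 192, 305, 222 and 275 on days 1, 5, 10 and 20 on STO, and 117 on day 20 on MSC1, and 682 in interstitial and 137 in tubular somatic cells. Interstitial cells and non-binding cells were the highest, which gave a 3.04-fold difference between the laminin libraries and a 4.99-fold difference between the somatic fractions. Its type B probe set went the other way, at 261 in laminin-binding and 164 in non-binding cells, and averaging the pair gave 1.38-fold and 1.88-fold and no call.

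The other inhibitors of CDKs were not called in the 6 main comparisons, while Cdkn2aip, which shares the symbol root, was. Cdkn1a, the main inhibitor induced by p53, read 368 in laminin-binding cells and 124 to 268 in the other germ cell libraries, with 230.4 in interstitial and 421 in tubular somatic cells. Cdkn1b, which holds cells in quiescence, read 288 in laminin-binding, 107 in non-binding and 251 in day 1 cells, 66.5 to 92.3 on days 5 to 20 on STO and 210.2 on MSC1, with 409 in interstitial and 186 in tubular somatic cells. Cdkn2d was even, between 379.6 and 707. Cdkn2a was at least 50 in MSC1 (124) and interstitial cells (82.6) and under it in the other 7 libraries, and Cdkn2b was under it in all 9. Cdkn2aip, whose protein binds the ARF product of Cdkn2a, had 222 in laminin-binding cells, 1108 in non-binding cells, 235.5, 199, 488 and 811 on days 1, 5, 10 and 20 on STO, and 289.6 on day 20 on MSC1, and 361 in interstitial and 199.9 in tubular somatic cells. Non-binding cells and day 20 on STO were the highest, 4.99-fold over laminin-binding cells and 3.44-fold over day 1.

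Cdc45, a part of the helicase that opens DNA for replication, was high in all germ cells, with 5440.2 in laminin-binding cells, 4808 in non-binding cells, 5167, 3974, 4361 and 3409.8 on days 1, 5, 10 and 20 on STO, and 3681 on day 20 on MSC1. It had 1087 in interstitial and 1308 in tubular somatic cells, below every germ cell library. Laminin-binding cells were 4.16-fold above the nearer somatic fraction, and the germ cell mean was 3.65-fold above the somatic mean. A second of its 4 probe sets called the first of these differences (3.94-fold), and the mean over all 4 ended both calls (2.47-fold and 2.10-fold). Cdc34, the enzyme that hands ubiquitin to the complexes that break down CDK inhibitors, had 2294 in laminin-binding cells, 808 in non-binding cells, 1158, 1594, 1658 and 1284 on days 1, 5, 10 and 20 on STO, and 1194 on day 20 on MSC1, and 137 in interstitial and 480.5 in tubular somatic cells. Laminin-binding cells were the highest and 4.78-fold above the nearer fraction, the germ cell mean was 5.30-fold above the somatic mean, and tubular somatic cells were 3.50-fold above interstitial cells. The mean over its 3 probe sets gave 2.31-fold, 2.15-fold and 1.53-fold and no call. Of the probe sets not used, 1 was under 50 in all libraries. The other gave 2.60-fold, 1.87-fold and 1.02-fold for the same differences and called none of them.

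The phosphatases that switch CDKs on were not called. Cdc25a read 119 to 432, highest in non-binding and lowest in interstitial cells, and Cdc25b read 60.1 to 112. None of the 4 subunits of the anaphase-promoting complex in the group was called. Cdc6, Cdc7 and Cdc25c, which start replication or mitosis, were not among the genes found under the rule and are not analysed here.

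Cdc42, a small GTPase of cell shape and polarity that shares the name only, was lowest in laminin-binding cells. It had 450.3 in laminin-binding cells, 2615 in non-binding cells, 1879, 1561, 1724 and 2869 on days 1, 5, 10 and 20 on STO, and 1016 on day 20 on MSC1, and 3074 in interstitial and 4952 in tubular somatic cells. Laminin-binding cells were 5.81-fold below non-binding cells and 6.83-fold below the nearer somatic fraction. The same probe set read on the type B arrays gave 3.67-fold and 4.46-fold. A probe set on type B alone also called the first difference, at 812 against 4564 (5.62-fold). It was low in the somatic fractions (364 and 369.7). The remaining probe set was higher in laminin-binding cells (925 against 687). With the mean over the 3, the folds were 2.89 and 1.67 and neither call was made.

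Cdc42 and its effectors, which act on the actin skeleton, were 10 genes of the group. Of the effectors, 3 were called in at least 1 comparison, where 29.0% of all genes were. Cdc42ep1 had 659.7 in laminin-binding cells, 183 in non-binding cells, 384, 686, 477 and 128 on days 1, 5, 10 and 20 on STO, and 679.6 on day 20 on MSC1, and 258 in interstitial and 756 in tubular somatic cells. It was low in non-binding cells and on day 20 on STO: laminin-binding cells were 3.61-fold above non-binding cells, day 20 was 3.01-fold below day 1, and MSC1 was 5.33-fold above STO on day 20. The day 20 call was lost under the 75th percentile scaling (2.93-fold) and quantile normalization (2.68-fold). Cdc42ep3 had its highest signals in tubular somatic cells (1096) and non-binding cells (779), the latter 3.15-fold over the 247 of laminin-binding cells (2.90 and no call under quantile normalization). Cdc42ep4 was highest in interstitial cells (609), 3.62-fold over tubular somatic cells, and on STO it went from 482.5 on day 1 to 139 on day 20, a 3.48-fold difference.

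Laminin-binding against non-binding cells, and day 1 against day 20 on STO, share no library, and 4 genes were called in the same sense in both, 3 of them higher in non-binding cells and on day 20 and 1 lower. Ccnc, Ccne2 and Cdkn2aip were the 3 higher, which is 30% of the 10 genes higher in non-binding cells and 75% of the 4 higher on day 20. Over all genes, 131 were shared, 17.9% of the 731 and 45.5% of the 288. Cdc42ep1 was the 1 lower. The log2 folds of both comparisons had a correlation of 0.56 over the 80 genes of the group measured in both and of 0.50 over all 10669 genes so measured, which describes these 4 libraries. Meiotic prophase markers moved with both: Spo11 read 14.5 in laminin-binding and 2417 in non-binding cells, and 101.5 on day 1 and 2381 on day 20, and their part was not tested. Of the 7 markers of undifferentiated spermatogonia, Ret read 707 in laminin-binding and 87.3 in non-binding cells, and 1729.5 on day 1 and 48.6 on day 20. Gfra1, Nanos3, Sox3 and Snap91 were also lower in non-binding cells and on day 20. Epcam was higher in both (2153 and 2617, 768 and 2002). Etv5 was higher in non-binding than in laminin-binding cells (237 and 199) and lower on day 20 than on day 1 (283 and 322.5). On day 20, 3 of the 7 were under 50, and in non-binding cells 1 was. With Epcam, the sum of the 7 was 5522 in laminin-binding and 3374 in non-binding cells, 4223 on day 1 and 2611.5 on day 20. The 5 markers of pachytene and later stages summed to 673 in laminin-binding and 17804 in non-binding cells, 829.7 on day 1 and 2304 on day 20. The day 20 sum was mostly Crem (1506) and Odf2 (733), and Ldhc, Crisp2 and Acrv1 were under 50 there. The part of these markers was not tested.

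Other genes were called in 1 of these comparisons alone. Cdc37l1, a relative of a chaperone partner, read 876 in non-binding cells and 97.1 to 215 in the other 8 libraries, a 7.58-fold difference from laminin-binding cells; averaged with its second probe set it was 1.97-fold. Cdk5rap3, named for the Cdk5 activator its protein binds, was 54.9 in laminin-binding and 282 in non-binding cells (5.14-fold, or 2.82 with a floor of 100), and 114 to 161 elsewhere. Cdk2ap1, which binds Cdk2, was instead even between the laminin libraries (537 and 491.5) and 3.24-fold lower on day 20 (576.5) than on day 1 (1867), or 1.80 with the mean over its 2 probe sets, of which the other was under 50 in all libraries.

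**Figure D4:**
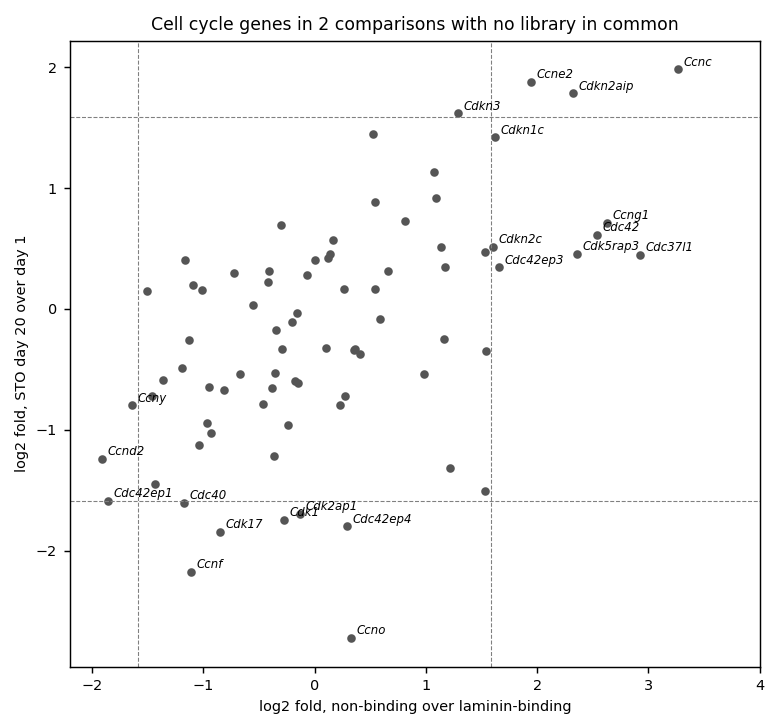
Log2 fold of non-binding over laminin-binding cells (horizontal axis) against log2 fold of day 20 over day 1 on STO (vertical axis) for the 80 genes measured in both comparisons; each point is a gene, dashed lines mark 3-fold, and genes called in either are named. Ccnc, Ccne2 and Cdkn2aip lie past 3-fold on both axes at the upper right, and Ccno lies lowest.

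Along the STO series more genes were called between day 10 and day 20 than between day 1 and day 5 or day 10. The steps differ in length, and that from day 5 to day 10 was not counted. Some genes called on day 20 had moved earlier. Cdc42ep4 went from 482.5 on day 1 to 210.4 on day 5, and Cdkn2aip from 235.5 on day 1 to 488 on day 10. Against day 1, 0 genes of the group were higher and 1, Cdkn1b, lower on day 5 (all genes, 0.123% and 0.239%), and 0 were higher and 1, Cdk17, lower on day 10 (all genes, 0.167% and 0.550%). Day 20 against day 10 had 2 higher (Ccne2 and Cdkn1c) and 4 lower (Ccna2, Ccnf, Ccno and Cdc42ep1), where 1.18% and 1.78% of all genes were. Cdk17, a kinase of the PCTAIRE group, read 722, 273, 139.5 and 201 on days 1, 5, 10 and 20. Cdc40, a splicing factor, read 787, 663, 608 and 259, and its 3.04-fold difference was 2.96 with the 75th percentile scaling, which ended the call. The 7 fibroblast and matrix markers summed to 1037 to 1562 on days 1 to 10, 4029.6 on day 20 and 4331 on MSC1, with Serpinh1 under 50 in each of these 5 libraries. Col1a1, the main collagen of fibroblasts, was 133 on day 1, 539.9 on day 20 on STO and 693 on MSC1, and the part of feeder RNA in the differences was not tested.

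**Figure D5:**
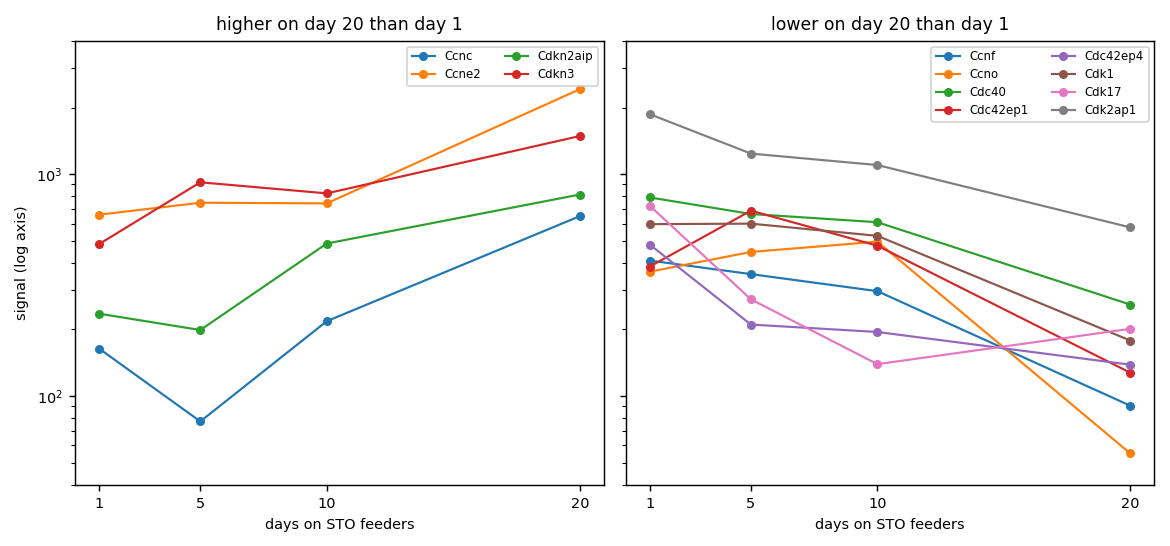
Signals of the 12 genes called between day 20 and day 1 on STO feeders (vertical log axis, scaled signal; horizontal axis, days; each point is 1 library), with the 4 higher genes at the left and the 8 lower genes at the right. Ccne2 stays between 658 and 745 up to day 10 and reaches 2419 on day 20, and Ccno drops from 497 on day 10 to 55.2 on day 20.

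A linear fit of log2 signal on log2 day with limma, over the 76 genes of the group with a mean signal of at least 100 in the series, called none rising and none falling at an adjusted p of 0.05 (all genes, 0% and 0%). At an unadjusted p of 0.05, 2 were rising and 5 falling of the 76 (all genes, 3.37% and 6.38%). The lowest adjusted p of the group by limma was 0.426, shared by Cdk17 and Cdc42ep4. Their slopes were -0.50 (SE 0.14) and -0.41 (SE 0.12) per doubling of days. With day itself in place of log2 day, Ccnc, Ccne2 and Cdkn2aip were called rising and Ccnf, Ccno, Cdc40, Cdk1 and Cdk2ap1 falling, 3 and 5 genes, where 3.44% and 6.14% of all genes were called; the lowest adjusted p was 0.0202, for Ccne2 (slope 0.10 per day, SE 0.02). Without the day 20 library the log2 day fit called 1 gene, Cdk17, falling and 0 rising (adjusted p = 0.00326 by limma; all genes, 0.205% and 0.0342%). These fits have 1 array per day, so their error measures how far the signals stray from a line, not how far repeated cultures differ.

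Other genes of the cell cycle, from a list of 64 of which 57 were on the arrays, were counted in the same way. In germ cell over somatic libraries 16 of the 57 were higher and none lower (all genes, 4.73% and 5.23%). The median log2 fold was 0.97 (all genes, 0.09). Laminin-binding cells had 9 higher and none lower than both somatic fractions (all genes, 4.77% and 3.56%). Tubular somatic cells had 1 higher and 5 lower than interstitial cells (all genes, 3.30% and 3.99%). Among the 5 was Top2a, the topoisomerase of dividing cells, at 85.2 against 327. Between the laminin libraries 3 were higher and 5 lower in laminin-binding cells (all genes, 4.85% and 5.29%). Foxm1, a transcription factor of the mitotic genes, read 514 in laminin-binding and 109.6 in non-binding cells, and E2f8, a repressor of the E2f family, 353 and 88.3. The spindle checkpoint kinase Bub1 went the other way, with 1771 and 8078. Day 20 on STO had none higher and 4 lower (E2f6, E2f8, Skp2 and Aurkb) than day 1 (all genes, 2.09% and 3.76%). MSC1 had 3 higher and 2 lower than STO on day 20 (all genes, 3.63% and 2.72%). Skp2, which marks the inhibitor Cdkn1b for breakdown, read 1149.7 on day 1, 122 on day 20 on STO and 490.3 on MSC1.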

How the data were processed

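Each of 9 populations was hybridised to 2 types of 1-colour oligonucleotide array, 18 arrays in all. The deposited values are linear intensities, and per the labels the authors set the average of every array to 250. Each sample was amplified 2 times from 50 ng of RNA, per the labels. Software, background treatment and build: not given in the sources used here. Detection calls were not used.

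Control probe sets were left out and the 100 probe sets shared by both types were counted on type A, which left 31042 probe sets. Of these, 13807 genes were named by a single annotated symbol. Signals were raised to 50 and taken to log2 (Python 3.11.15, pandas 2.3.3). Pairs of populations were compared by a rule of size, with no test. The culture trend was fitted with limma 3.58.1 (R 4.3.3) on 4 arrays, with Benjamini-Hochberg adjustment over 16066 probe sets. The fit was tested on simulated data. The simulated slopes were steeper than any of the group, so they do not show whether slopes as small as those of the group would be called. Genes were named if called or on a list of 33 core genes, of which 30 were on the arrays. The genes, lists and rules were chosen with earlier results of these data known. Promoter sequences are those of RefSeq (GRCr8) and were matched by gene identifier. Ccna2, Ccnd1, Ccnd2, Ccne2, Cdc16, Cdc42ep2, Cdk13, Cdk17, Cdk6, Cdk9 and Cdkn1c had none. The number of arrays limits the precision. Alternatives were a floor of 25 or 100, 2 other scalings, a fold of 2, the mean over probe sets, type A first, and libraries left out or exchanged, the last chosen after seeing the data.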

Additional observations from a re-analysis of the deposited data

How the results depend on the processing

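Of the 57 calls of single genes, 26 held under each of 6 alternatives (floors of 25 and 100, 75th percentile scaling, quantile normalization, the mean over probe sets, and type A first), 31 were lost under at least 1, and 0 reversed. Of 104 recomputed counts, 76 stayed within 1.5 times and 28 did not. With a fold of 2 (share of all genes in brackets), laminin-binding against non-binding cells had 12 higher (10.5%) and 18 lower (9.72%), laminin-binding cells against both somatic fractions 13 (9.49%) and 5 (6.64%), MSC1 against STO 8 (8.37%) and 9 (7.12%), day 20 against day 1 had 7 higher (5.59%), tubular somatic cells 6 higher (7.10%), and germ cell against somatic libraries 3 lower (7.42%). With the mean over probe sets there were 6 lower (4.03%) in laminin-binding cells than in non-binding ones, 2 higher (3.69%) and 0 lower (2.53%) against both somatic fractions, 2 higher on day 20 (1.44%), 1 higher in tubular somatic cells (2.56%) and 5 higher in germ cells (3.81%). MSC1 had 5 lower (3.67%) under the 75th percentile scaling and 4 (2.88%) under quantile normalization, which left 1 higher in tubular somatic cells (3.34%). A floor of 100 left 0 lower in germ cells (4.67%). Among the exchanges chosen after seeing the data, day 5 for day 1 gave 4 lower on day 20 (3.55%). With day 10 for day 1 there were 2 higher (1.18%) and 4 lower (1.78%). Day 10 for day 20 gave 0 higher (0.167%) and 1 lower (0.550%). Leaving out both laminin libraries gave 2 lower in germ cells (5.87%). The trend on day called 3 rising (3.44%) and 5 falling (6.14%), and that without day 20 called 1 falling (0.205%). The causes were not tested, except that fewer arrays entered where libraries were left out. No paired analysis was possible because each population had 1 array of each type and no replicate numbers. Signals near the floor of 50 limit folds against Ccne2, Ccno and Cdkn3 in somatic cells.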

Other observations

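Among genes outside the rule for named genes, and chosen after their values were seen, Cdk5rap2, a protein of the centrosome, read 769 in non-binding cells and 109 to 342 in the other 8 libraries. Cdk11b, a kinase of splicing, was highest in non-binding cells (581) and on day 20 on STO (559), followed by laminin-binding cells (404), and read 146 to 217 elsewhere. Ccnk, the partner of Cdk12 and Cdk13, read 1615 in non-binding and 1020.4 in laminin-binding cells and 252 to 642 in the other libraries. Cdc123 read 493 in non-binding cells and 70.3 on day 20 on STO, the highest and the lowest of its 9 signals.

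The probe set of Cdc42 on type B alone read 4564 in non-binding cells, 812 in laminin-binding cells and 364 to 514 in the other 7 libraries. The probe set used above was highest in tubular somatic cells, at 4952 on type A. Which transcripts each probe set reads was not tested. Probe sets not used above called 4 further differences, each in a gene whose brightest probe set was not called: Ccnl2 between day 20 and day 1 on STO (136 against 654), and between MSC1 and STO on day 20 Ccnd1 (533 against 152), Ccni (51.8 against 342.5) and Cdk2 (306 against 97.8).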
